A study of Mus musculus with 8 samples.

Results

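The secreted and membrane-bound proteases of the extracellular matrix and their inhibitors were followed through myoblasts with and without Septin9. The group holds 10 of the 42391 gene entries of the raw count matrix, found by symbol: the matrix metalloproteinases Mmp2, Mmp3, Mmp9, Mmp13 and Mmp14, the proteases Adamts1 and Adamts5, and the inhibitors Timp1, Timp2 and Timp3. RNA was sequenced from 8 samples of mouse myoblasts, with 2 replicates from independent experiments in each of 4 groups, to ask what the loss of the septin Septin9 does to gene expression. C2C12 control and C2C12 Septin9-deficient samples came from the C2C12 myoblast line, given either a non-targeting siRNA or one against Septin9 and lysed 60 h later, after 12 h in differentiation medium. Primary myoblast control and primary myoblast Septin9-deficient samples received the same kinds of siRNA and were lysed after 48 h in proliferation medium. All cells were wild type, and the primary myoblasts came from mouse hindlimb muscle, depleted of fast-adhering cells by pre-plating on collagen and grown on Matrigel, itself an extracellular matrix. The group was put together because Mmp13 was lower after Septin9 siRNA in primary myoblasts and Adamts1 was lower in C2C12 cells. The differences after siRNA are for this reason given as a description, without a test, while the differences between experiments and between control cells were tested, apart from those of Mmp13 and Adamts1 where their choice rested on the same samples.

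Matrix metalloproteinases are zinc enzymes that cut collagens, laminins, fibronectin and other proteins of the extracellular matrix. Most are secreted as inactive proenzymes, and members can activate each other: Mmp14, which is anchored in the plasma membrane, activates Mmp2 with the help of Timp2. Adamts1 and Adamts5 are secreted proteases with thrombospondin repeats that cut large proteoglycans such as versican and aggrecan. Timp1, Timp2 and Timp3 bind the active site of matrix metalloproteinases and block it, though not each inhibitor blocks each enzyme equally well. Timp3, which stays bound to the matrix, also inhibits several Adamts proteases. In skeletal muscle these enzymes are known for opening the basement membrane and the matrix around fibres during growth, repair and migration of myoblasts.

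Promoter sequence from RefSeq was matched for 7 of the 10 members. It is shown for Mmp13 and Adamts1, on which the choice of genes rested, and for Mmp3, the other member on chromosome 9. Each line gives the 250 bases before the annotated start on GRCm38.p6, 5′ to 3′ on the strand of the gene. Capitals mark the heptamer bound by AP-1 factors (TGAGTCA or its reverse complement TGACTCA, searched on both strands) and the TATA box letters TATAAA, searched on the gene's strand. The motifs do not overlap each other.
Mmp13 (chr9:7272264-7272513, plus strand): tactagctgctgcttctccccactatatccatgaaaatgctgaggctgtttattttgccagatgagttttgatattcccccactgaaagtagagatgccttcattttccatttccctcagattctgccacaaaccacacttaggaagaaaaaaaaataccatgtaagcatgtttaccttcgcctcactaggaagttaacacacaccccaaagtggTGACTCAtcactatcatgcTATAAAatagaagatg
Mmp3 (chr9:7445572-7445821, plus strand): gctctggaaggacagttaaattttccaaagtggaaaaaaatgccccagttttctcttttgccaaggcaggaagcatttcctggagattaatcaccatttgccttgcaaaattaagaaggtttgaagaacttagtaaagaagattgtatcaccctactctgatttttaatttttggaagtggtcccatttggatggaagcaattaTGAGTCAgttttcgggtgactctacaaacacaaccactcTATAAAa
Adamts1 (chr16:85803114-85803363, minus strand): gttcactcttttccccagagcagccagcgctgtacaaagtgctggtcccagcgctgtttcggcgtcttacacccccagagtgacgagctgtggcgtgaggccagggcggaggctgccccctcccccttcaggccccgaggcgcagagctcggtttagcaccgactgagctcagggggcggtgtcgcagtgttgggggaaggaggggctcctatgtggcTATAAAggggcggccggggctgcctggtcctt
Of the 7 matched members, 2 held the AP-1 heptamer, which starts 35 bases before the start of Mmp13 and 46 bases before that of Mmp3. The heptamer was found in 4.46% of 32851 promoters of the same length. The TATA box letters were found 16 bases before the start of Mmp13, 7 bases before that of Mmp3 and 32 bases before that of Adamts1, and in 7.59% of all promoters. A match describes the letters of this window, and binding was not measured.

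On GRCm38, Mmp13 (chr9:7272514-7283331) and Mmp3 (chr9:7445822-7455975) lie on the plus strand of chromosome 9, and Adamts1 (chr16:85793827-85803113) and Adamts5 (chr16:85856173-85901828) lie beside each other on the minus strand of chromosome 16. Timp3 (chr10:86300372-86349506, plus strand) shares 1733 exonic bases, or 21.3% of its exonic length of 8144 bases, with exons of Syn3 on the opposite strand. Reads from that stretch cannot be told apart without strand, and whether the counting used strand is not given in the sources used here. The exons of the other 9 members overlap no other annotated exon.

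Counts per sample ranged from 20898611 to 27223414, so that 3 counts were worth between 0.110 and 0.143 CPM, the usual measure of a count against the total of its sample, here scaled by TMM over all 8 samples. Septin9, the target of the siRNA, measured 422 ± 18.1 CPM in C2C12 control and 166 ± 26.9 CPM in C2C12 Septin9-deficient samples (mean ± SD, n = 2), or 39.3% of control. In primary myoblasts it measured 424 ± 68.8 and 183 ± 34.7 CPM, or 43.2% of control. Markers of myogenic cells were detected in every sample (6 of 6 above 0, summed level 725 to 5345 CPM). The summed level of 10 genes of differentiating muscle was 32.8 to 154 CPM in C2C12 and 3818 to 18140 CPM in primary myoblasts, although the latter stood in proliferation medium. Macrophage markers summed to at most 4.01 CPM and endothelial markers to at most 4.77 CPM in any sample.

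Control cells of both kinds expressed inhibitors and proteases at levels that span several orders of magnitude. Per kilobase of exonic length, the highest level in C2C12 control was that of Timp2 at 214 ± 37.6 CPM per kilobase (mean ± SD, n = 2), followed by Mmp14 at 164 ± 32.2, Timp1 at 144 ± 13.7 and Mmp2 at 121 ± 41.8. Mmp14, Timp1 and Mmp2 overlapped with their neighbour in this order. Timp3 came next at 20.3 ± 1.63 CPM per kilobase, clear of its neighbours. Adamts5 and Adamts1 followed at 4.15 ± 0.00141 and 3.88 ± 0.431, and their ranges overlapped. Mmp9 stood at 0.356 ± 0.231 CPM per kilobase, and Mmp13 and Mmp3 were at or near 0.

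In primary myoblast control, the order per kilobase was led by Timp1 at 326 CPM per kilobase and Timp2 at 175, with Mmp14 at 45.0 and Mmp2 at 8.27. The 6 others lay below 2 CPM per kilobase: Timp3 at 1.96, Adamts1 at 1.92, Mmp13 at 1.21, Mmp9 at 0.824, Adamts5 at 0.716 and Mmp3 at 0.363. The ranges of Timp1 and Timp2 overlapped, as did those of all neighbours from Mmp2 downwards, so that only Mmp14 stood clear of both its neighbours. Summed per kilobase, the 3 inhibitors stood above the 7 proteases in every sample. The ratio of these sums was 1.5 and 1.14 in C2C12 control, 1.55 and 1.30 in C2C12 Septin9-deficient, 8.82 and 8.49 in primary myoblast control, and 11.1 and 8.56 in primary myoblast Septin9-deficient samples (replicates 1 and 2). The ratio was higher in each primary myoblast sample than in any C2C12 sample. It was higher in the Septin9-deficient sample than in its control in each of the 4 pairs, though nearly level in pair 2 of the primary myoblasts. The ranges of the siRNA groups overlapped within a cell type. Nothing is read from this direction, since the siRNA differences served to choose the genes. Mmp13 and Adamts1 themselves were small parts of the protease sum. In control replicate 1 they gave 0 and 4.19 of 241 CPM per kilobase in C2C12, and 1.83 and 0.883 of 43.4 in primary myoblasts. All these values are levels of RNA, not of protein or activity.

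**Figure D1:**
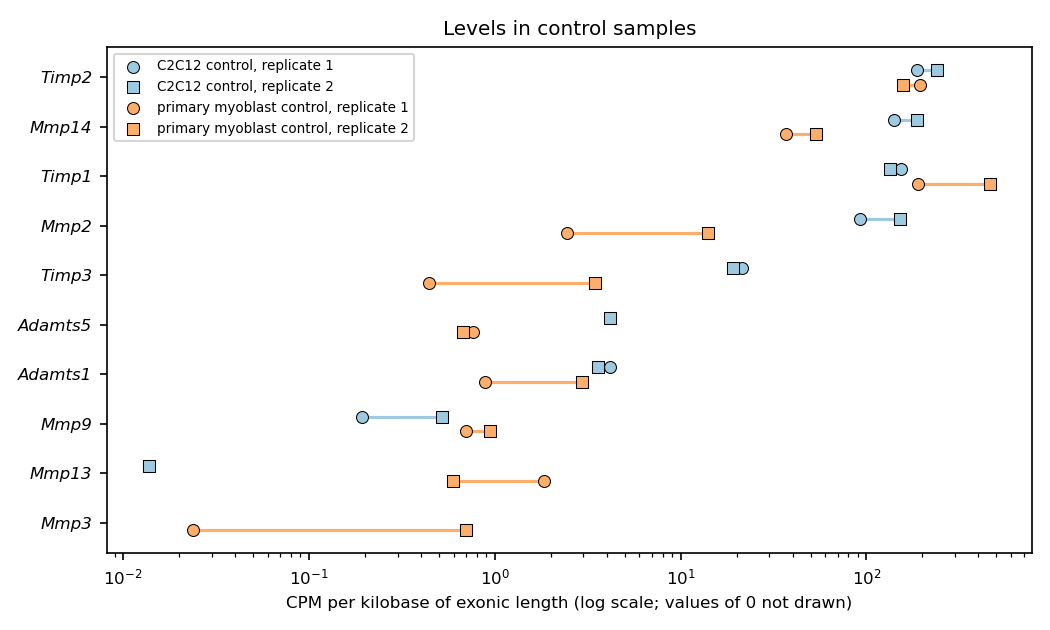
Level of each member in the control samples, in CPM per kilobase of exonic length on a log axis (C2C12 blue, primary myoblasts orange, circle replicate 1, square replicate 2, line joining the 2 replicates, values of 0 not drawn). Timp2, Mmp14, Timp1 and Mmp2 lead in C2C12, whereas Mmp2 and Timp3 stand far lower and far apart between the replicates in primary myoblasts.

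The question whether control primary myoblasts differ from control C2C12 cells was addressed with edgeR's quasi-likelihood test over the 4 control samples, with the Benjamini-Hochberg adjustment over 17103 genes. A gene was called when its adjusted p was under 0.05 and its change at least 1.5-fold. Mmp13 and Adamts1, chosen on these controls among others, and Mmp3, with too few counts, were left out of the count. Of the 7 other members, 4 were called lower (Mmp2, Mmp14, Adamts5 and Timp3) and 0 higher in primary myoblasts, with 5 at an unadjusted p under 0.05 and 5 called by DESeq2, against 33.3% of all tested genes called in either direction, 15.8% as lower and 17.5% as higher. Cell type, medium and time after transfection differ together in this comparison and cannot be told apart.

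Mmp2, the gelatinase that is activated at the cell surface, measured 309 and 509 CPM in C2C12 control and 8.24 and 47.5 CPM in primary myoblast control (replicates 1 and 2). Both C2C12 values lay above both primary myoblast values, and the log2 difference was -3.87 (SE 0.89, edgeR adjusted p = 0.0303). Mmp14, its membrane-bound activator, measured 839 and 1110 CPM in C2C12 and 219 and 318 CPM in primary myoblasts. The values did not overlap, and the log2 difference was -1.85 (SE 0.26, edgeR adjusted p = 0.0104). Leaving out 1 sample, with the lone sample assumed to vary like the other group, ended the call of Mmp2 without either C2C12 control (log2 difference -4.19 and -3.47) and that of Mmp14 without C2C12 control replicate 2 (-1.65).

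Adamts5, an aggrecanase, was the member whose control replicates lay closest together, at 44.8 and 44.8 CPM in C2C12 and 8.20 and 7.25 CPM in primary myoblasts. It was lower in both primary samples, with a log2 difference of -2.53 (SE 0.17, edgeR adjusted p = 0.00330), and kept its call with any control sample left out. Timp3 measured 175 and 156 CPM in C2C12 and 3.61 and 28.4 CPM in primary myoblasts. Its values did not overlap, and the log2 difference was -3.36 (SE 0.94, edgeR adjusted p = 0.0484). The call of Timp3 was lost with RLE size factors, with library size alone, with a minimum of 10 counts and without either C2C12 control (-3.29 and -3.45).

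The collagenase gene Mmp13 gave 0 and 1 counts in C2C12 control and 114 and 43 counts in primary myoblast control. After scaling, this was a ratio of 154 (exact 95% interval 27.2 to 6110, for counting error only), and no p is given because these primary myoblast values were part of the difference that chose the gene. Mmp3, the stromelysin that can activate other proenzymes, gave 0 counts in both C2C12 controls and 1 and 34 counts in primary myoblast controls. It was at least 11.4-fold higher in the primary samples, set against 3 counts over the C2C12 group, and nearly all of its counts came from replicate 2. Adamts1, given without a test for the same reason as Mmp13, measured 22.2 and 19.0 CPM in C2C12 and 4.68 and 15.6 CPM in primary myoblasts, with no overlap.

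The 3 remaining members did not pass the test. Timp1 measured 136 and 119 CPM in C2C12 and 168 and 410 CPM in primary myoblasts, a log2 difference of 1.19 (SE 0.43, edgeR adjusted p = 0.0920). Both primary values were higher, and the call was made without a filter, with DESeq2, with a crossed replicate block, and without primary myoblast control replicate 1 (1.67). Timp2, present at 728 and 935 CPM in C2C12 and at 754 and 611 CPM in primary myoblasts, overlapped between the cells (log2 difference -0.28, SE 0.21, edgeR adjusted p = 0.340). Mmp9, the other gelatinase, measured 0.683 and 1.84 CPM in C2C12 and 2.49 and 3.34 CPM in primary myoblasts (log2 difference 1.20, SE 0.55, edgeR adjusted p = 0.148). These low levels rest on 15 and 50 counts and on 58 and 90 counts.

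**Figure D2:**
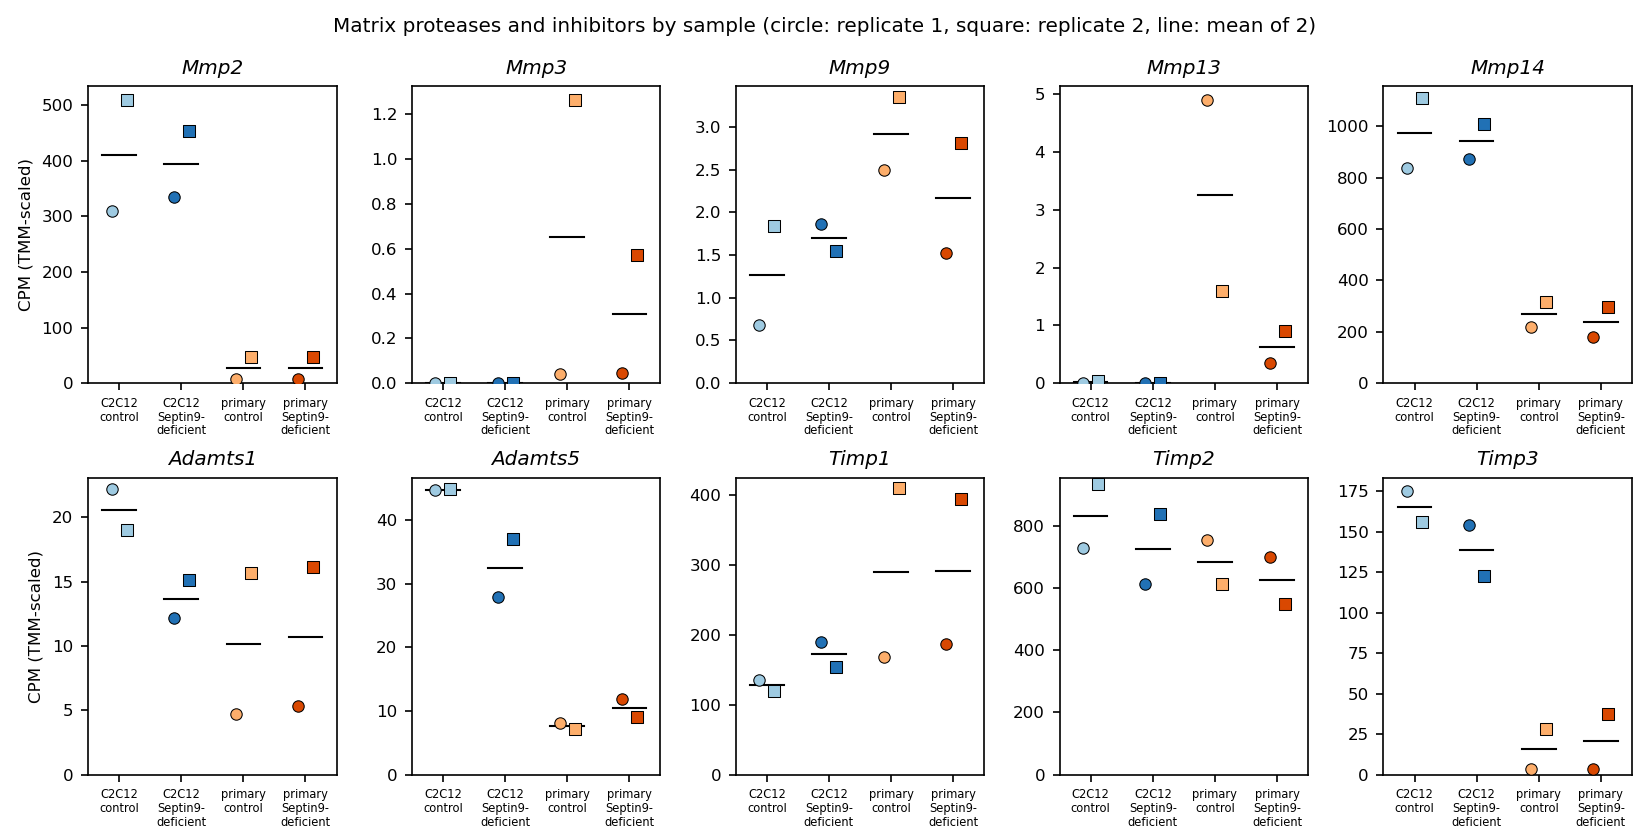
CPM of each member in the 8 samples, 1 panel a gene on a linear axis that starts at 0 (circle replicate 1, square replicate 2, line the mean of the 2). In primary myoblasts the squares of Mmp2, Adamts1, Timp1 and Timp3 stand far above the circles in both siRNA groups, whereas Mmp13 is highest in control replicate 1 at 4.89 CPM.

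The same siRNA group was compared between the independent experiments 1 and 2, which are replicates 1 and 2, to see how far the members vary within a siRNA group. Mmp13, chosen on these primary myoblast samples, and Mmp3, which passed the filter on low counts only through experiment 2, are given there without a test. Of the 8 other members, 5 (Mmp2, Mmp14, Adamts1, Timp1 and Timp3) were higher in experiment 2 of the primary myoblasts and 0 lower by the same test of the replicate term, with 7 at an unadjusted p under 0.05 and 5 called by DESeq2. Over all genes 15.9% were called in either direction and 8.05% as higher in experiment 2. Each experiment gave 1 control and 1 Septin9-deficient sample, so that these p-values do not cover the spread of repeated experiments. The labels do not say whether the experiments used separate isolations of cells.

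Timp3, the matrix-bound inhibitor, stood at 3.61 and 28.4 CPM in the control samples of experiments 1 and 2 and at 3.62 and 37.7 CPM after Septin9 siRNA. The folds were 7.86 and 10.4, and the fitted log2 difference was 3.20 (SE 0.16, edgeR adjusted p = 3.62e-11). Mmp2 measured 8.24 and 47.5 CPM in the controls, and after Septin9 siRNA 7.38 and 46.9 CPM. The folds of Mmp2 were 5.77 and 6.35, with a log2 difference of 2.62 (SE 0.13, edgeR adjusted p = 3.97e-11). For both genes, each sample of experiment 2 lay above each sample of experiment 1, whichever siRNA it had received.

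Adamts1 measured 4.68 and 15.6 CPM in the controls of experiments 1 and 2, and 5.32 and 16.1 CPM after Septin9 siRNA, a log2 difference of 1.69 (SE 0.16, edgeR adjusted p = 3.36e-07). Timp1 measured 168 and 410 CPM in the controls and, after Septin9 siRNA, 187 and 393 CPM, a log2 difference of 1.20 (SE 0.12, edgeR adjusted p = 6.58e-07). Adamts1 and Timp1 were likewise higher in both samples of experiment 2. Mmp14 measured 219 and 318 CPM in the controls and 181 and 295 CPM after Septin9 siRNA (log2 difference 0.64, SE 0.12, edgeR adjusted p = 0.000521). Without either Septin9-deficient sample the difference of Mmp14 was 0.52 and fell below 1.5-fold. Mmp3 gave 1 count in each sample of experiment 1 and 34 and 12 counts in the control and Septin9-deficient samples of experiment 2.

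The log2 difference between experiments in primary myoblasts was -0.30 for Timp2 (SE 0.13), -0.27 for Adamts5 (SE 0.17) and 0.65 for Mmp9 (SE 0.27). None of the 3 passed the test (edgeR adjusted p = 0.108, 0.268 and 0.0949). Mmp13 was the member in which the experiments disagreed between the siRNA groups: its level in experiment 2 was 0.327 times that of experiment 1 in control and 2.53 times in Septin9-deficient samples. Its fitted log2 difference was -0.78 (SE 0.45), and it was 1.32 without either control and -1.63 and -1.62 without Septin9-deficient replicates 1 and 2.

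In C2C12 cells, with Adamts1 left out because its choice rested on them, 0 of the 7 other members fitted passed both thresholds with edgeR or with DESeq2, against 11.3% of all genes, while 5 of the 7 had an unadjusted p under 0.05. Mmp2 was the furthest apart, at 309 and 509 CPM in the controls and 334 and 453 CPM after Septin9 siRNA (log2 difference 0.55, SE 0.07, edgeR adjusted p = 9.80e-06). This lay just under 1.5-fold and passed it without either Septin9-deficient sample (0.72 in each case). Mmp9 was called without either Septin9-deficient sample as well (1.42 and 1.43), and went the other way without either control. Timp3 measured 175 and 156 CPM in the C2C12 controls and 154 and 123 CPM after Septin9 siRNA. Its log2 difference between experiments was -0.27 (edgeR adjusted p = 0.00338), under 1.5-fold.

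Markers of other cells moved with the experiments in primary myoblasts. A list of 8 fibroblast markers summed to 12.7 and 12.3 CPM in the control and Septin9-deficient samples of experiment 1 and to 112 and 147 CPM in those of experiment 2. Of 6 fibroblast markers tested, 5 were higher in experiment 2 (Dcn, Pdgfra, Pdgfrb, Ly6a and Thy1), with a median log2 difference of 4.09. Dpt and Lum gave 0 counts in both samples of experiment 1. The same list summed to 264 to 382 CPM in C2C12 cells, a myoblast line. All 10 genes of differentiating muscle were lower in experiment 2 (7 called by DESeq2), with a median log2 difference of -1.35. The part of these markers in the differences of Mmp2, Timp3 and the other members was not tested, and in bulk RNA fewer cells of a type and less RNA per cell cannot be told apart.

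**Figure D3:**
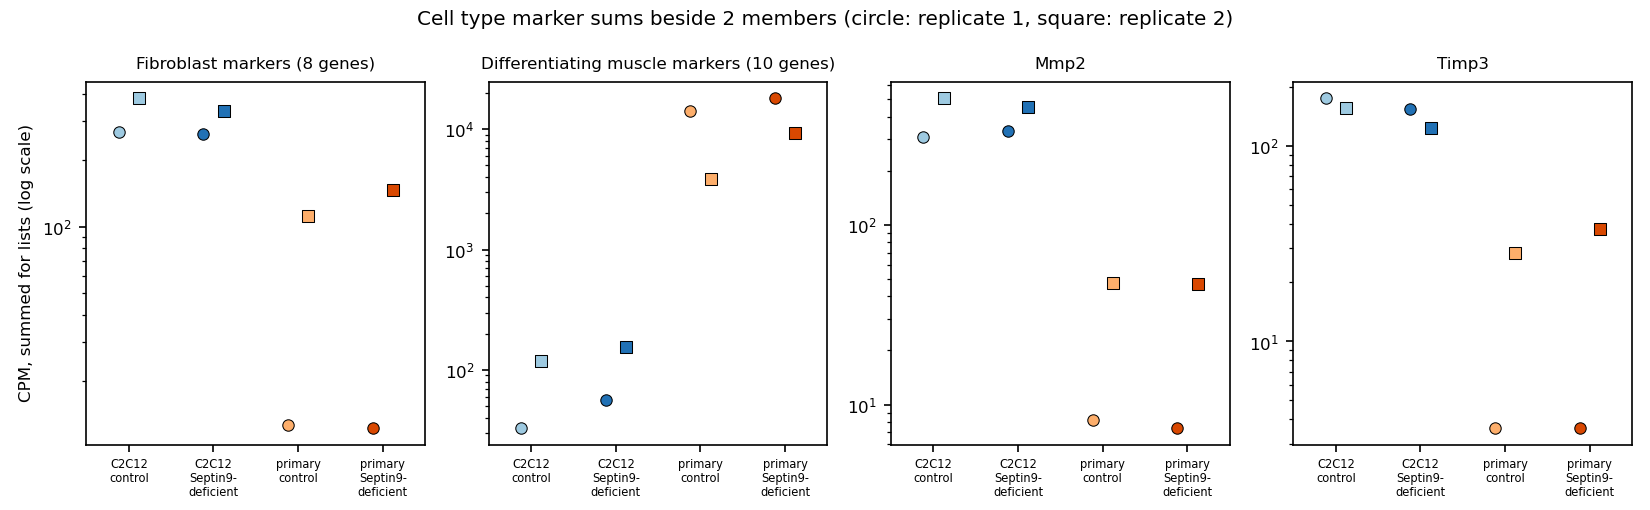
Summed CPM of 8 fibroblast markers and 10 markers of differentiating muscle beside the CPM of Mmp2 and Timp3 in each sample, on log axes (circle replicate 1, square replicate 2). In primary myoblasts the fibroblast sum, Mmp2 and Timp3 are higher in replicate 2 of both siRNA groups, whereas the muscle sum is lower there.

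RNA of genes for matrix proteins, the substrates of these enzymes, was also higher in experiment 2 of the primary myoblasts. Of 19 substrate genes tested, 17 were called higher and none lower, with a median log2 difference of 1.43. Col6a3 (7.37, SE 0.20), Col1a1 (5.74, SE 0.21), Col1a2 (3.62, SE 0.15) and Fn1 (1.43, SE 0.20), which encode chains of collagens and fibronectin, were among them. The proteoglycan gene Dcn stands in both this list and that of fibroblast markers. Among 9 other MMPs tested, Mmp10, Mmp17, Mmp19 and Mmp28 were called higher in experiment 2 and none lower, while DESeq2 called 2 of the 9. In the control and Septin9-deficient samples of experiment 1, Mmp10 gave only 1 and 12 counts and Mmp28 only 9 and 6.

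After Septin9 siRNA, the comparison from which the genes had been chosen, Mmp13 was lower in both pairs of primary myoblasts. Mmp2, Mmp9, Mmp14 and Timp2 were also lower there in both pairs, and Adamts1, Adamts5 and Timp3 were higher. In both pairs of C2C12, Adamts1, Adamts5, Timp2 and Timp3 were lower and Timp1 was higher. In C2C12 cells 8 members had counts enough to be fitted, and 1 of the 8, Adamts1, passed the adjusted p and 1.5-fold thresholds. In primary myoblasts all 10 were fitted and 1, Mmp13, passed. Over all genes 1.57% were called in C2C12 (0.74% as lower) and 3.17% in primary myoblasts (0.298% as lower), and nothing is read from the members' counts, since these differences served to choose them. Median log2 differences of the members were -0.13 in C2C12 and -0.10 in primary myoblasts, against 0.00 and 0.01 over all genes.

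Mmp13 gave 114 and 43 counts in primary myoblast control and 8 and 19 counts in primary myoblast Septin9-deficient samples (replicates 1 and 2). This was 4.89 and 1.60 CPM in the controls, set against 0.358 and 0.906 CPM after Septin9 siRNA, and both control values lay above both others. The Septin9-deficient sample stood at 7.31% of its control in pair 1 and at 56.7% in pair 2. The fitted log2 difference was -2.23 (SE 0.47), was -3.76 without replicate 2 and -0.81 without replicate 1, so that most of its size came from pair 1, in which the control was the highest and the Septin9-deficient sample the lowest of the 4. With RLE size factors, library size alone, DESeq2, no replicate block or all 8 samples in 1 fit, Mmp13 no longer passed the thresholds, and with a minimum of 10 counts it was not fitted. In C2C12 cells Mmp13 gave 1 count in 4 samples, so that a difference was not detectable at this depth.

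Adamts1 gave 488 and 516 counts in C2C12 control and 261 and 363 counts in C2C12 Septin9-deficient samples. Scaled, this was 22.2 and 19.0 against 12.2 and 15.2 CPM, without overlap, or 54.8% of control in pair 1 and 79.9% in pair 2. The fitted log2 difference was -0.59 (SE 0.12), close to the 1.5-fold threshold, and was -0.87 without replicate 2 and -0.32 without replicate 1. It passed no longer with library size alone, with DESeq2, with the deposited batch-corrected counts, without the replicate block or with all 8 samples in 1 fit. In primary myoblasts Adamts1 stood at 114% and 103% of control in the 2 pairs.

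Adamts5, the neighbour of Adamts1 on chromosome 16, measured 44.8 and 44.8 CPM in C2C12 control and 28.0 and 37.0 CPM in C2C12 Septin9-deficient samples. Both Septin9-deficient values lay below the controls, with a fitted log2 difference of -0.47 (SE 0.09), under 1.5-fold. The difference was -0.68 without replicate 2, beyond 1.5-fold, and -0.28 without replicate 1. In primary myoblasts Adamts5 measured 8.20 and 7.25 CPM in the controls, set against 11.9 and 9.01 CPM after siRNA. There both Septin9-deficient values lay above the controls, with a fitted log2 difference of 0.43 (SE 0.17).

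Among the inhibitors, Timp1 measured 136 and 119 CPM in C2C12 control and 190 and 154 CPM in C2C12 Septin9-deficient samples. These did not overlap, and the fitted log2 difference was 0.42 (SE 0.07), with 0.48 in pair 1 and 0.37 in pair 2. In primary myoblasts Timp1 had a fitted log2 difference of 0.05 (SE 0.12). Timp3 measured 175 and 156 CPM in C2C12 control and 154 and 123 CPM after Septin9 siRNA, again without overlap, with a fitted log2 difference of -0.27 (SE 0.07). In primary myoblasts its fitted difference was 0.29 (SE 0.15), of which pair 1 gave 0.01 and pair 2 gave 0.41. Timp2 was lower in both pairs of both cell types, with fitted log2 differences of -0.21 (SE 0.08) in C2C12 and -0.13 (SE 0.13) in primary myoblasts, and its groups overlapped in each.

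The abundant proteases moved little. Mmp2 had a fitted log2 difference of -0.04 (SE 0.07) in C2C12 and -0.07 (SE 0.13) in primary myoblasts. Mmp14 had one of -0.05 (SE 0.08) in C2C12 and -0.19 (SE 0.12) in primary myoblasts, and for both genes the pairs in C2C12 went in opposite directions. Mmp9 gave 15 and 50 counts in C2C12 control and 40 and 37 counts after Septin9 siRNA, and its pairs disagreed (log2 ratio 1.34 and -0.24). In primary myoblasts Mmp9 was lower in both pairs (-0.68 and -0.24, fitted -0.45, SE 0.27). Mmp3 gave 1 count in each sample of pair 1 of the primary myoblasts and 34 and 12 counts in control and Septin9-deficient samples of pair 2, and 0 counts in every C2C12 sample.

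Over all genes, 30.4% were lower and 31.3% higher in both pairs of C2C12, and 29.4% and 32.0% in both pairs of primary myoblasts. In C2C12, 4 of 8 members were lower in both pairs (Adamts1, Adamts5, Timp2 and Timp3) and 1 was higher (Timp1). In primary myoblasts, 5 of 10 were lower in both pairs (Mmp2, Mmp9, Mmp13, Mmp14 and Timp2) and 3 were higher (Adamts1, Adamts5 and Timp3). Adamts1 in C2C12 and Mmp13 in primary myoblasts are among the lower ones by the choice of the genes, and nothing is read from these counts. Adamts1, Adamts5 and Timp3, 3 of the 8 members fitted in both cell types, had opposite signs in the cell types in every pair (12.3% of 15073 genes), which is likewise a description. Genes of differentiating muscle moved in the same libraries: 4 of 8 tested were called higher after siRNA in C2C12 (2 by DESeq2), among them Tnni1 (log2 difference 1.12, SE 0.20, edgeR adjusted p = 0.00121). In primary myoblasts 9 of 10 were called higher (5 by DESeq2), among them Ckm (1.14, SE 0.18, edgeR adjusted p = 0.000852). Over all genes, 131 of 15814 were called higher in C2C12 and 491 of 17117 in primary myoblasts. Acta1, of the same list, was lower in both C2C12 pairs (log2 ratio -0.57 and -0.28). Its pairs disagreed in primary myoblasts (-0.40 and 0.27), and it was called in neither cell type. The fibroblast sum was 267 and 382 CPM in C2C12 control against 264 and 335 CPM after siRNA, and Thy1 was the only fibroblast marker of the 6 tested to be called in primary myoblasts (0.80, SE 0.22, edgeR adjusted p = 0.0431, not called by DESeq2). Their part in the differences of the members was not tested.

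**Figure D4:**
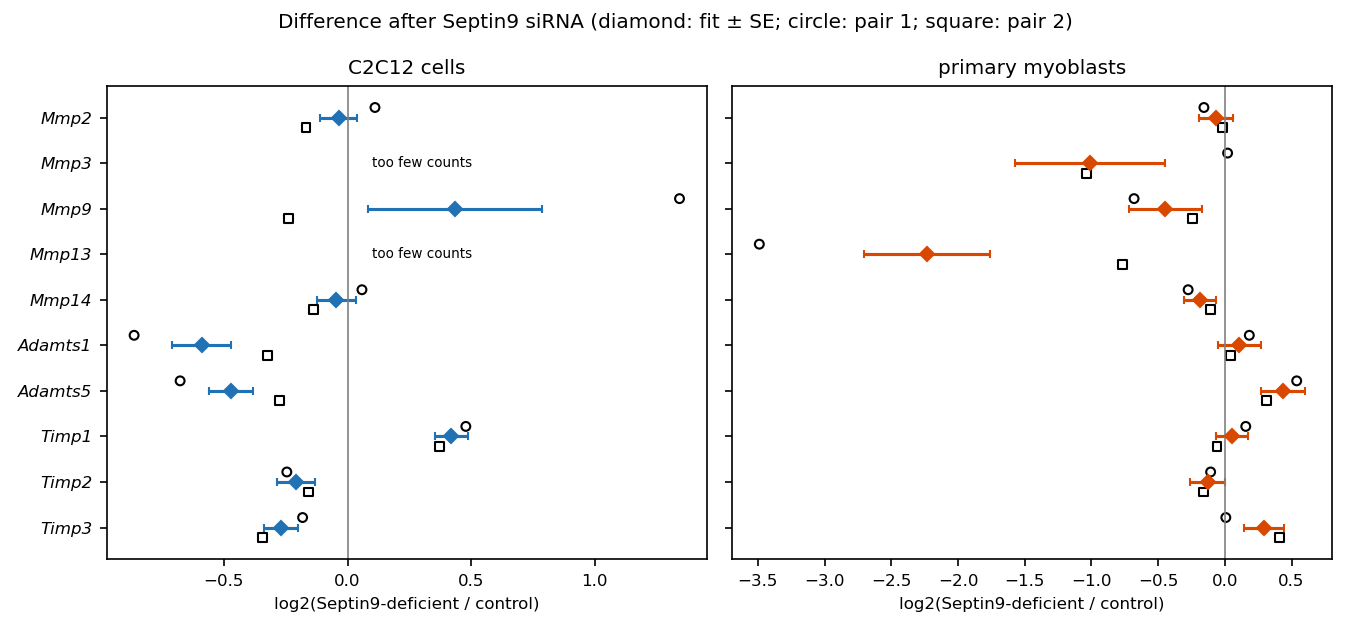
Log2 ratio of Septin9-deficient to control for each member in C2C12 cells and primary myoblasts (diamond with bar the fit ± SE, open circle pair 1, open square pair 2; the axes of the panels differ in range). Mmp13 in primary myoblasts has the largest ratio, with pair 1 at -3.49 and pair 2 at -0.76. In both pairs of C2C12, Timp1 lies above 0, whereas Adamts1, Adamts5, Timp2 and Timp3 lie below it.

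**Figure D5:**
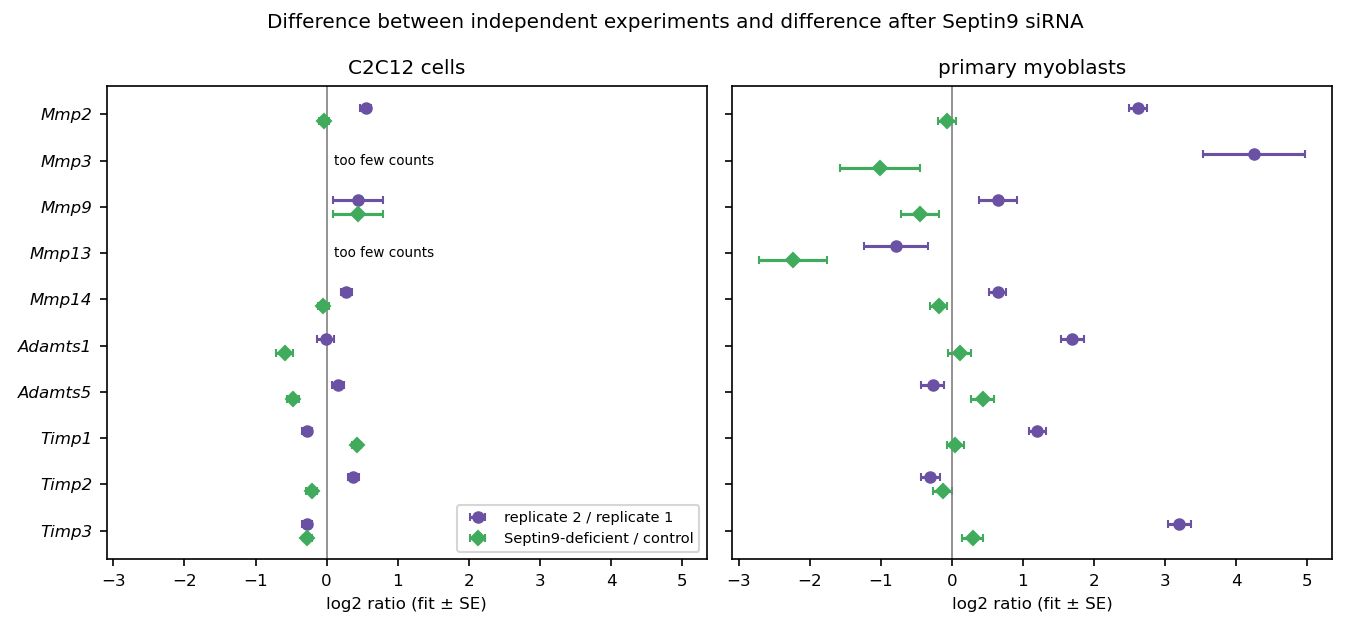
Fitted log2 ratio ± SE between experiments 2 and 1 (purple circle) and between Septin9-deficient and control samples (green diamond) for each member, on 1 scale for both cell types. In primary myoblasts the experiment term of Mmp2 and Timp3 reaches 2.62 and 3.20, whereas their siRNA term is -0.07 and 0.29.

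Other genes of the pathway were listed by family or function and were tested. The lists were drawn up with earlier results of these data known, so that these p-values are not free of that choice. Of the 18 other MMPs, 8 could be tested in C2C12 and 9 in primary myoblasts, and 0 were called in either by edgeR or DESeq2, with 2 and 1 at an unadjusted p under 0.05. Of 10 other Adamts proteases tested in each cell type, 0 were called in C2C12 (3 at an unadjusted p under 0.05, 0 by DESeq2), and Adamts20 rose in primary myoblasts (log2 difference 0.90, SE 0.23, edgeR adjusted p = 0.0269). Adamtsl5, an Adamts-like protein without a protease domain, also rose there (0.72, SE 0.16, edgeR adjusted p = 0.0110). DESeq2 called neither Adamts20 nor Adamtsl5. Of 7 transmembrane Adams, 0 were called in either cell type by edgeR or DESeq2, with 1 at an unadjusted p under 0.05 in each. The plasminogen system, whose product plasmin activates proMMPs, had 0 of 6 called in C2C12 and 0 of 7 in primary myoblasts by either tool, with 2 at an unadjusted p under 0.05 in each.

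Among 20 matrix substrates tested in C2C12, Col6a3, a chain of collagen VI, fell (log2 difference -0.61, SE 0.07, edgeR adjusted p = 1.59e-05). It was the only 1 called, with 6 of the 20 at an unadjusted p under 0.05. In primary myoblasts 0 of 19 substrates were called by edgeR or DESeq2, with 4 at an unadjusted p under 0.05. Of 13 regulators of Mmp promoters, Ets1, a transcription factor of the ETS family, fell in C2C12 (-0.86, SE 0.07, edgeR adjusted p = 7.11e-07), and Jund, an AP-1 subunit, rose in primary myoblasts (0.83, SE 0.11, edgeR adjusted p = 0.000359). The other 12 regulators in each cell type were not called. Of the 13, 2 in C2C12 and 5 in primary myoblasts had an unadjusted p under 0.05. In C2C12, 8 had a positive and 5 a negative log2 difference, and in primary myoblasts 3 and 10. Their median there was -0.14, against 0.01 over all genes.

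In the control comparison, the most abundant genes of these lists fell on both sides. Adamts14, a procollagen peptidase, was higher in primary myoblasts (log2 difference 1.83, SE 0.13, edgeR adjusted p = 0.00373), as were the membrane-type Mmp15 (2.59, SE 0.49, edgeR adjusted p = 0.0194) and the plasminogen activator gene Plau (1.44, SE 0.25, edgeR adjusted p = 0.0158). Mmp11 (-1.80, SE 0.16, edgeR adjusted p = 0.00481) and Reck, a membrane-anchored inhibitor of MMPs (-1.57, SE 0.35, edgeR adjusted p = 0.0269), were lower. Adamtsl3, an Adamts-like protein, was lower too (-4.15, SE 0.33, edgeR adjusted p = 0.00421). Tfpi2, a secreted serine protease inhibitor that also acts on MMPs, gave 0 counts in both C2C12 controls and 24 and 310 counts in primary myoblast controls, and was at least 109-fold higher there, set against 3 counts over the C2C12 group. The substrate genes Fn1 (-1.54, SE 0.35, edgeR adjusted p = 0.0301) and Col3a1 (-2.55, SE 0.29, edgeR adjusted p = 0.00713) were lower as well, as were the transcription factor genes Junb (-1.44, SE 0.19, edgeR adjusted p = 0.00940) and Ets2 (-1.36, SE 0.13, edgeR adjusted p = 0.00565). Adam9 (-0.25, SE 0.15) and Adam10 (-0.18, SE 0.14), sheddases of the cell surface, were not called (edgeR adjusted p = 0.250 and 0.366). Adamts4 (0.56, SE 0.26) and Adamtsl5 (-0.70, SE 0.38) were not called either (edgeR adjusted p = 0.149 and 0.210).

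The genes most like Mmp13 across the 8 samples, by Pearson's correlation of log2 CPM among 15191 genes, were the small nucleolar RNA entries Snord96a_1 (r = 0.978) and Snord96a (r = 0.975) and the atypical cadherin Fat1 (r = 0.975). By their names the entries Snord96a_1 and Snord96a are copies of 1 gene, and how reads were split between them was not examined. Those most like Adamts1 were Rtn4rl1 (r = 0.983), Glis3 (r = 0.981) and Mob3a (r = 0.980). These values describe the 8 samples, which fall into the 2 cell types, and Fat1, for example, ranged from 95.4 to 136 CPM in C2C12 and from 203 to 355 CPM in primary myoblasts. Within primary myoblasts Fat1 was highest in control replicate 1, as Mmp13 was. This is no separate observation, since Fat1 was picked by its correlation with Mmp13 over the same samples.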

How the data were processed

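The authors mapped paired-end reads of polyA RNA to GRCm38.p6 with STAR 2.7.2 and counted them per gene with featureCounts 2.0.1 (versions from the submitters' processing notes). They deposited raw counts of the 8 samples and, for each cell type, a normalized signal, in which counts adjusted with ComBat-Seq were divided by DESeq2 size factors. There, 100% of signal values above 0 were whole multiples of 1 read (within 0.02), so that whole reads were recovered and served as an alternative. Of the raw table, 16 broken lines, which hold 5 genes, were left out, and 0 columns of values were unassigned. Samples were grouped by their labels, and 20898611 to 27223414 counts were present per sample. The sources name Gencode, whereas the gene names are RefSeq symbols. Gene positions and exonic lengths came from GENCODE M21 on GRCm38, and promoters from RefSeq.

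Fits used edgeR 4.0.16 in R 4.3.3 with filterByExpr, TMM scaling, the quasi-likelihood test and the Benjamini-Hochberg adjustment over all genes tested. Genes were called at an adjusted p under 0.05 and a log2 difference of at least 0.585 in size. Each cell type was fitted alone with the replicate number as a block, which also gave the difference between experiments. Controls were compared without a block, and the siRNA difference between cell types was the interaction term of all 8 samples. Standard errors are the log2 difference divided by the root of F. Pair ratios were taken from CPM with a prior count of 2 on the log2 scale. The replicate numbers paired the samples, as the methods describe independent experiments: deviations from group means correlated at 0.55 in C2C12 and 0.79 in primary myoblasts. P-values of the siRNA and control comparisons cover the spread of 2 replicates. Those between experiments do not cover the spread of repeated experiments, since each experiment gave only its control and its Septin9-deficient sample. They cover how far these samples differ beyond the siRNA term. Intervals and floors of 3 counts cover counting error only.

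Alternatives were RLE size factors, library size alone, no filter, at least 10 counts in every sample, DESeq2 1.42.0, other block terms, the batch-corrected counts, all 8 samples in 1 fit, and each replicate left out. The scripts were tested on simulated data. Tables and plots were made in Python 3.11.15 (pandas 2.3.3, numpy 2.4.6, matplotlib 3.10.9, scipy 1.17.1). The members and the gene lists were chosen with earlier results of these data known. Genes named are the members, Septin9, per list and siRNA comparison up to 3 called genes with the largest change in 1 direction in both pairs, per list the 2 most abundant genes of the control comparison (printed for the pathway lists, apart from a gene that is not reported here), and the 3 genes most like Mmp13 and Adamts1 among those with a mean of at least 1 CPM. Other named genes were chosen after their values were seen.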

Additional observations from a re-analysis of the deposited data

Results flagged for a closer look

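Adamts5, Timp3 and Adamts1 went in opposite directions in the cell types in every replicate pair, lower after Septin9 siRNA in C2C12 and higher in primary myoblasts, as 12.3% of all genes did in either order. The siRNA change in primary myoblasts minus that in C2C12, from the interaction term, was 0.9046 on the log2 scale for Adamts5, 0.5666 for Timp3 and 0.6859 for Adamts1. These are a description, with no p, since they rest on the siRNA differences that served to choose the genes and were singled out by their signs. Leaving out 1 replicate pair gave Adamts5 1.11 without C2C12 replicate 2, 0.80 without primary myoblast replicate 1 and 1.02 without primary myoblast replicate 2. Without C2C12 replicate 1 the siRNA differences within C2C12 were smaller. They were -0.28 for Adamts5, against -0.47 with both pairs, and -0.32 for Adamts1, against -0.59. Pair 1 of Timp3 in the primary myoblasts was level (log2 ratio 0.01), and without it the difference of Timp3 was 0.69. Without primary myoblast replicate 2 the siRNA difference of Timp3 within primary myoblasts was 0.003. With the interaction term 0 of 17918 genes were called by edgeR, 1469 had an unadjusted p under 0.05, and 21 were called by DESeq2. In groups of 2 samples no single sample could be examined for standing apart.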

How the results depend on the processing

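Of 531 alternative values of single members, 488 kept their direction and side of the threshold or moved by less than the spread of the pairs. Of the others, 13 were no longer called, 16 became called, 12 went the other way and 2 moved by more. The 488 hold siRNA differences that crossed a threshold or changed sign but moved by less than that spread. Among these, Adamts1 and Mmp13 lost their calls under the alternatives named above, and Adamts5 reached -0.68 without C2C12 replicate 2. The 13, 16 and 12 leave such values out. Genes called after siRNA in C2C12 numbered 248 and became 99 with DESeq2, 134 with the batch-corrected counts, 83 with all 8 samples in 1 fit and 98 to 181 with 1 replicate pair left out. In primary myoblasts 542 became 260 with RLE size factors, 206 with library size alone (165 of them higher, against 491 of 542), 230 with DESeq2, 331 with the batch-corrected counts and 358 to 926 with 1 pair left out. Without the replicate block 0 genes were called in either cell type by edgeR, with 372 in C2C12 and 378 in primary myoblasts at an unadjusted p under 0.05. The member called in each cell type (1) became 0 with library size alone, DESeq2, no replicate block and all 8 samples, in C2C12 also with the batch-corrected counts (0), and in primary myoblasts with RLE size factors and at least 10 counts (0). With 1 pair left out it became 0 to 2 in C2C12 and 0 to 1 in primary myoblasts.

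Genes called between experiments in C2C12 numbered 1788, 1138 with DESeq2 and 1111 to 1717 with 1 sample left out, when 0 to 2 members were called. In primary myoblasts 2714 became 1674 with DESeq2. In the control comparison 5699 became 512 to 4760 with 1 sample left out, and members called, 5 with Mmp13 among them, became 3 with at least 10 counts and 1 to 7 with 1 sample left out. The replicate numbers of the 2 cell types share only a number (correlation of deviations -0.132). The replicate block there gave 4326 genes, and the crossed block, added after the data were seen, gave 6370. For the interaction term, 0 genes became 199 without a filter, 21 with DESeq2 and 51 to 470 with 1 pair left out, and 0 members became 2 without a filter and 0 to 3 with 1 pair left out.

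Some values went the other way. Between experiments in C2C12 these were Mmp9 (-0.2691 to 1.425 with 1 sample left out), Adamts1 (0.01308 with library size alone, 0.007207 with DESeq2, -0.2278 to 0.3203 with 1 sample left out) and Adamts5 (-0.0005464 to 0.4068 with 1 sample left out), and in primary myoblasts Mmp13 (-1.627 to 1.324 with 1 sample left out). The interaction value of Mmp2 became 0.01242 without the replicate block and -0.185 to 0.09151 with 1 pair left out. The cause was not tested. Depth limits Mmp3, Mmp9 and Mmp13, which rest on at most 114 counts in any sample.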
